A study of Mus musculus with 24 samples.

Results

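Ccl24, which encodes the chemokine eotaxin-2, was followed in mouse eosinophils grown from bone marrow in culture. It is 1 of the 25746 genes listed in the deposited count files, and it was found by pairing the Ensembl identifiers with gene symbols. The gene was chosen by its levels in the wild-type libraries, where it was higher with GM-CSF, with IL-10 and with the combination than without them. The wild-type levels and folds below are therefore a description with no test, and tests are given for comparisons made within the knockout-labelled libraries.

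The 24 RNA-seq libraries fall into 8 groups of 3, all from C57BL/6 mice. Marrow cells were grown with stem cell factor and FLT3 ligand (100 ng/ml each) until day 4 and afterwards with IL-5 (10 ng/ml), a cytokine that drives eosinophil growth. Dead cells were removed on day 13, and the cells then stood overnight in IL-5, so every group, untreated ones included, carries IL-5. Wild-type cells were untreated or received recombinant GM-CSF (20 ng/ml), recombinant IL-10 (no dose is stated in the labels) or the combination. Cells labelled Csf2ra-/- and cells labelled Irf5-/- were untreated or received GM-CSF, and no IL-10 arm is among the knockout samples used here. The labels speak of triplicates and do not say whether these were separate cultures or animals, so p-values measure the spread between these libraries. Whether that spread is technical is not known for Csf2ra-/- cells, where the summed level of 4 Y-linked genes was 148 to 185 CPM in all 6 libraries. In the other genotypes the sum differed within each group, for example 178, 12.1 and 39.3 CPM in untreated libraries labelled Irf5-/- and 163, 13.2 and 44.0 CPM in the treated ones, so their 3 libraries are not all repeats of 1 culture. Replicate numbers follow the order of the deposit and the labels pair no libraries. The sums labelled Irf5-/- were alike by replicate number across treatments, and those of wild type were not in all replicates. Any pairing across treatments was left out of the fit and was not tested.

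Eotaxins are small secreted chemokines that attract eosinophils through the receptor CCR3. Eosinophils carry CCR3 themselves, so cells that secrete eotaxin-2 can call in more of their own kind. Macrophages activated by IL-4 or IL-13 are a well-known source of Ccl24. GM-CSF acts through a receptor made of an alpha chain, encoded by Csf2ra, and a beta chain shared with IL-5, and signals through JAK2 and STAT5. IL-10 is an anti-inflammatory cytokine that acts through IL-10RA and IL-10RB and mainly STAT3.

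Ccl24 (ENSMUSG00000004814) lies on the minus strand of chromosome 5 of GRCm38, from 135569937 to 135573049. Its annotation holds 2 transcripts, and the one that spans the whole locus has 3 exons, the last of them 1027 bp long. The exons cover 1295 bp in total and no other annotated gene overlaps them. Counts per gene do not show which exon or transcript a read came from.

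Total counts per library lay between 6222979 and 18709153. Levels are counts divided by a library size corrected by TMM, the trimmed mean method of edgeR, and are called CPM. The summed level of 11 eosinophil markers was 74320 to 112500 CPM over the 24 libraries, which matches the label eosinophil. The targeted genes were read beside the genotype labels. Irf5 read 1393 to 1999 CPM in the 6 libraries labelled Irf5-/- and 28.3 to 94.3 CPM in the other 18, so it was higher, not lower, under the label. Counts per gene do not show whether a working product was made and do not settle the genotype. These 6 are therefore called the libraries labelled Irf5-/- throughout. Csf2ra read 28.5 to 39.8 CPM in the 6 Csf2ra-/- libraries and 41.7 to 83.8 CPM elsewhere, lower but not absent.

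Ccl24 was scarce in untreated wild-type cells, stood at similar higher levels with GM-CSF and with IL-10, and was highest with the combination. Untreated wild-type replicates 1, 2 and 3 held 28, 16 and 15 Ccl24 counts, or 1.83, 1.38 and 1.12 CPM. With GM-CSF they held 200, 129 and 212 counts, or 11.4, 7.07 and 15.3 CPM. Every GM-CSF library thus stood above every untreated one.

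IL-10 alone gave 170, 192 and 111 counts, or 11.4, 12.8 and 9.55 CPM. These levels lay inside the range of the GM-CSF libraries. The combination gave 629, 835 and 501 counts, or 46.5, 60.7 and 26.3 CPM, and even its lowest library exceeded all libraries with a single cytokine.

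The knockout-labelled groups fell into a low set and a responding one. Csf2ra-/- cells held 0, 8 and 5 counts when untreated (0, 0.471 and 0.296 CPM), whereas with GM-CSF they held 9, 6 and 7 counts (0.486, 0.451 and 0.517 CPM). The count of 0 came from a library in which 3 counts would equal 0.370 CPM, so it allows a level up to about that. Libraries labelled Irf5-/- held 3, 23 and 14 counts when untreated (0.480, 1.67 and 0.915 CPM), whereas with GM-CSF they held 234, 101 and 77 counts (18.8, 8.01 and 5.59 CPM). The GM-CSF libraries stood clear of the untreated ones in the cells labelled Irf5-/-, whereas the treated and untreated ranges of Csf2ra-/- cells overlapped.

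**Figure D1:**
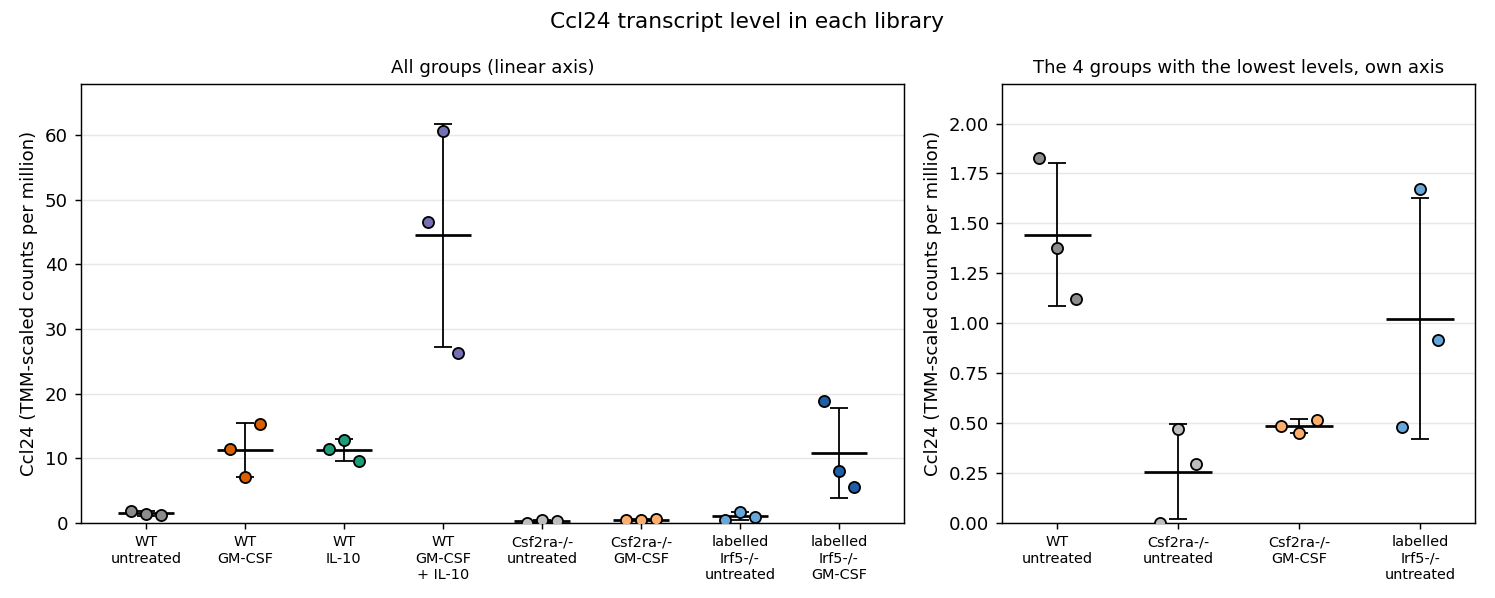
Ccl24 level (TMM-scaled CPM, linear axes) in each of the 24 libraries by group, with the group mean (horizontal line) and SD (error bar, n = 3), and at right the 4 groups with the lowest levels on their own axis. The 3 wild-type libraries with the combination sit at 26.3 to 60.7 CPM, above all others, and no Csf2ra-/- library exceeds 0.517 CPM.

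Ordered by mean, the groups ran from the combination in wild type (44.5 ± 17.3 CPM; SD, n = 3 here and below) through GM-CSF in wild type (11.3 ± 4.13 CPM), IL-10 in wild type (11.3 ± 1.64 CPM) and GM-CSF in cells labelled Irf5-/- (10.8 ± 7.03 CPM). Untreated wild type (1.44 ± 0.358 CPM) and untreated cells labelled Irf5-/- (1.02 ± 0.603 CPM) followed. Csf2ra-/- cells came last, at 0.485 ± 0.0329 CPM with GM-CSF and 0.256 ± 0.238 CPM untreated. Neighbours in this order had overlapping libraries except at 2 steps, from the combination to GM-CSF alone and from GM-CSF in cells labelled Irf5-/- to untreated wild type.

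At counts this low, sampling of reads adds its own error. The exact 95% Poisson interval of untreated wild-type replicate 3 (15 counts) ran from 0.628 to 1.85 CPM. For the highest library, with 835 counts, it ran from 56.7 to 65.0 CPM. These intervals cover counting error only. The spread within the combination group, where the highest library exceeded the lowest 2.31-fold, is wider than counting error.

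By its group mean, the joint effect was larger than the sum of the single gains and smaller than the product of the single folds. The model interval given below includes a product of folds. In group means, GM-CSF added 9.83 CPM to the untreated level and IL-10 added 9.81 CPM. Their sum on top of the untreated level would be 21.1 ± 2.58 CPM (SE), and the combination exceeded it by 23.4 ± 10.3 CPM (SE), a ratio of 2.11. All 3 libraries with the combination lay above the added level, the lowest at 26.3 CPM.

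Multiplied, the single folds of 7.82 and 7.80 would give a 61.0-fold rise and a level of 87.9 CPM. The observed fold of means was 30.9, and the 3 libraries all lay below the multiplied level, which the group mean reached by a ratio of 0.506. Leaving out each of the 12 wild-type libraries in turn kept the ratio to the added level between 1.73 and 2.54 and the ratio to the multiplied level between 0.414 and 0.617. The first range has both its ends in the combination group, without replicate 2 and without replicate 3.

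**Figure D2:**
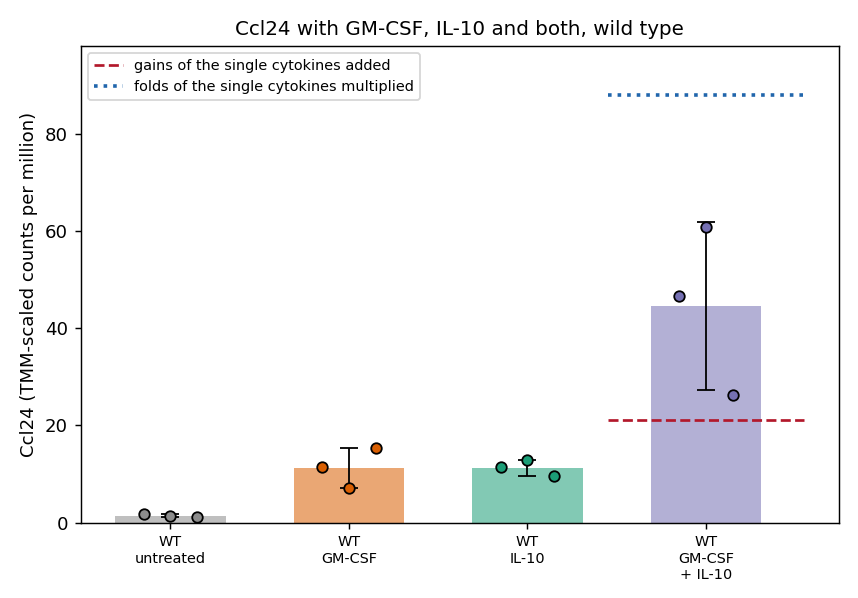
Ccl24 (TMM-scaled CPM) in the 4 wild-type groups, with bars for the mean, error bars for the SD (n = 3) and points for the libraries. The dashed line marks the level from added gains (21.1 CPM) and the dotted line the level from multiplied folds (87.9 CPM), and the libraries with both cytokines lie between them.

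On the log2 scale of the model, wild-type Ccl24 was higher with GM-CSF by 2.94 ± 0.46 (SE) in the absence of IL-10 and by 1.98 ± 0.37 in its presence. With IL-10 it was higher by 2.95 ± 0.46 in the absence of GM-CSF and by 1.98 ± 0.36 in its presence. The difference between the effects with and without the other cytokine was -0.96 ± 0.59, with a 95% interval from -2.19 to 0.27 that includes a product of folds. The combination stood 4.92 ± 0.46 above untreated cells, a 30.3-fold rise with an interval from 3.97 to 5.87 on the log2 scale. Over all 11885 tested genes the median log2 change was -0.01 with GM-CSF and 0 with IL-10.

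Within the knockout-labelled libraries, GM-CSF raised Ccl24 in cells labelled Irf5-/- and no change was called in Csf2ra-/- cells. In the cells labelled Irf5-/- the log2 fold change was 3.26 ± 0.50, a 9.59-fold rise (edgeR quasi-likelihood, Benjamini-Hochberg adjusted p = 0.00253). All 3 treated libraries exceeded all 3 untreated ones, and 0.353% of all tested genes were called in this comparison. The call was lost with limma-voom (adjusted p = 0.193) and in an edgeR fit of these 2 groups alone (adjusted p = 0.167). Without GM-CSF replicate 1, the highest library, the log2 fold change was 2.60, the lowest value with any 1 library left out, and the call held (adjusted p = 0.0118). The highest adjusted p with 1 library left out was 0.0341, without untreated replicate 3.

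In Csf2ra-/- cells the log2 fold change was 0.65 ± 0.91 with a 95% interval from -1.25 to 2.55 (edgeR adjusted p = 0.999). Behind it stand 13 counts in 3 untreated libraries and 22 counts in 3 treated ones, so a rise of a few fold was not detectable at this depth. Without untreated replicate 2 the estimate was 1.26, also not called. No gene was called in this comparison by edgeR (0% of 11885, with 531 genes at an unadjusted p under 0.05), by DESeq2 or by limma-voom.

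The direct test of the difference between these GM-CSF effects gave 2.61 ± 1.14 on the log2 scale, larger in the cells labelled Irf5-/-. It had an unadjusted p of 0.0333 by edgeR and did not pass adjustment over all genes (adjusted p = 0.914), a test that called 0.0252% of genes. Ccl24 itself was higher in cells labelled Irf5-/- than in Csf2ra-/- cells when both had GM-CSF, by 4.45 ± 0.54 or 21.8-fold (edgeR adjusted p = 2.87e-05, 3.05% of genes called). Without replicate 1 of the treated libraries labelled Irf5-/- that value was 3.78 and the call held. In the same comparison 5 of 9 tested dendritic cell markers were called higher (Ccr7, Cd209a, Cd74, H2-Aa and Zbtb46), with a median of 1.65 beside -0.01 over all genes. That count was 2 without Csf2ra-/- replicate 2, and 3 without Csf2ra-/- replicate 3, without replicate 1 labelled Irf5-/- or with limma-voom. Of 16 other chemokine genes 8 were called higher, with a median of 1.39. The part of these cells or genes in the Ccl24 difference was not tested. Untreated, the same genotypes differed by 1.84 ± 0.81 (edgeR adjusted p = 0.335, 0.782% of genes called), which did not pass.

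Set beside wild type, as a description, Ccl24 in Csf2ra-/- cells was lower by a log2 difference of -2.22 ± 0.76 untreated and -4.51 ± 0.54 with GM-CSF. The untreated value moved to -2.82 without Csf2ra-/- replicate 2. Dendritic cell markers were lower there too, 5 of 9 untreated (10.8% of all genes called) and 5 of 9 with GM-CSF (3.79%), and their part was not tested. The untreated count was 2 without Csf2ra-/- replicate 1 or wild-type replicate 2 and 3 without Csf2ra-/- replicate 2 or wild-type replicate 3, and the count with GM-CSF was 3 without Csf2ra-/- replicate 2. The libraries labelled Irf5-/- differed from wild type by -0.38 ± 0.61 untreated and -0.06 ± 0.37 with GM-CSF. Without untreated replicate 2 of that label, its highest library, the former was -0.89, and without GM-CSF replicate 1 the latter was -0.72. These comparisons share the wild-type libraries with the treatment effects above.

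**Figure D3:**
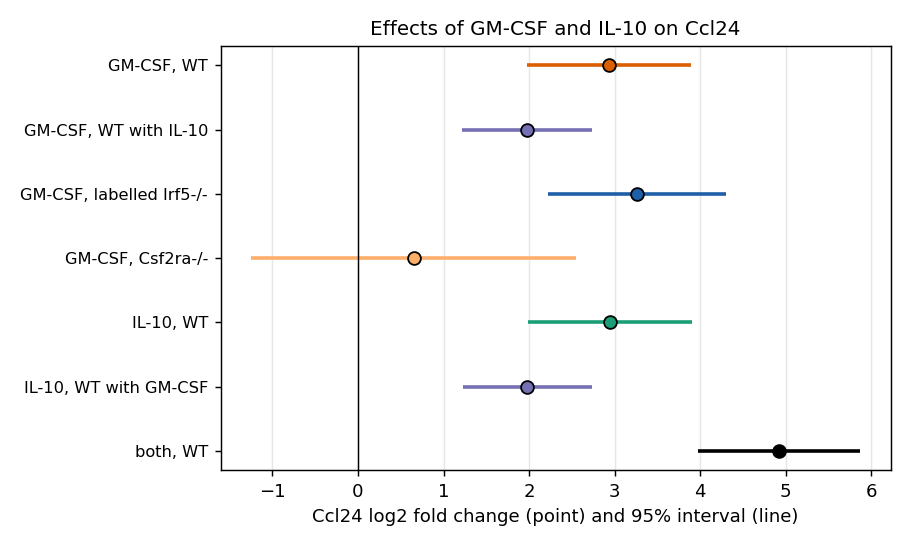
Log2 fold change of Ccl24 (point) with its 95% interval (line) for GM-CSF, IL-10 and the combination, from the model over 24 libraries. The interval of GM-CSF in Csf2ra-/- cells, from -1.25 to 2.55, includes 0, and that of the libraries labelled Irf5-/- runs from 2.22 to 4.30. The wild-type intervals are drawn as a description.

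Libraries of the same group differed in Ccl24 together with genes of antigen-presenting cells. The summed level of 10 dendritic cell marker genes in wild-type GM-CSF replicates 1, 2 and 3 was 555, 315 and 726 CPM, in the same order as Ccl24 (11.4, 7.07 and 15.3 CPM). With the combination the sum was 575, 750 and 292 CPM, again in the order of Ccl24 (46.5, 60.7 and 26.3 CPM). In treated libraries labelled Irf5-/- it was 789, 391 and 308 CPM beside Ccl24 at 18.8, 8.01 and 5.59 CPM. The order of the libraries was the same in 5 of the 8 groups, and opposite in untreated wild type. The 5 include treated Csf2ra-/- cells, with 9, 6 and 7 Ccl24 counts. Untreated wild type held 28, 16 and 15, so both orders are uncertain.

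The sum is mostly antigen presentation. Cd74, the invariant chain, and the MHC class II genes H2-Ab1 and H2-Aa made up 93.2% of it. Xcr1 had 0 counts in all libraries, and Clec9a read 0.123 to 1.24 CPM, above 0 in all. The order of Clec9a was that of Ccl24 in 5 of 8 groups and opposite in 1. Clec10a, a lectin of dendritic cells and macrophages, and Cd209a, a lectin of monocyte-derived dendritic cells, each ordered the libraries as Ccl24 did in 6 of 8 groups, the most of the 9 tested markers, and Clec10a gave the opposite order in the other 2. The other 7 markers matched the Ccl24 order in 2 (Flt3) to 5 groups. They reversed it in 0 (Zbtb46) to 2 groups (Ccr7 and Cd74). The matching groups of Clec10a and Cd209a include a Csf2ra-/- group, where Ccl24 counts were too few to set an order. Cd209a read 3.60, 0.767 and 8.61 CPM in the wild-type GM-CSF libraries and 4.07, 11.9 and 0.734 CPM in those with the combination. The sum of 11 macrophage-defining markers gave the same order in 0 groups, the eosinophil sum in 1 and total counts in 1.

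Expressed per 100 CPM of the dendritic marker sum, Ccl24 varied little between libraries of the treated wild-type groups. It was 2.06, 2.25 and 2.11 CPM with GM-CSF, and 8.10, 8.10 and 8.99 CPM with the combination. IL-10 alone gave 2.52, 2.90 and 2.34 CPM and untreated wild type 0.417, 0.290 and 0.235 CPM. The treated means were 2.14 ± 0.0975 CPM with GM-CSF, 2.59 ± 0.286 CPM with IL-10 and 8.39 ± 0.516 CPM with the combination. Untreated wild type stood at 0.314 ± 0.0932 CPM. Ccl24 was picked for being higher in these treated libraries, which partly fixes this order.

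Wild-type means of the marker sum were 464 ± 21.6 CPM untreated and 532 ± 207 CPM with GM-CSF. They were 433 ± 22.6 CPM with IL-10 and 539 ± 231 CPM with the combination. None of the 9 tested dendritic markers was called with GM-CSF in wild type, a comparison that called 66 genes or 0.555%. The sum was lower in Csf2ra-/- cells, where it ranged from 102 to 216 CPM over 6 libraries. In the libraries labelled Irf5-/- its mean was 242 ± 95.7 CPM untreated and 496 ± 257 CPM with GM-CSF, and per 100 CPM of it Ccl24 was 0.400 ± 0.0864 CPM and 2.08 ± 0.284 CPM. Of the 9 markers, Zbtb46, a dendritic cell transcription factor, was called there (log2 3.17 ± 0.69, edgeR adjusted p = 0.0421) and lost its call without any single library but GM-CSF replicate 3. The match was seen after the values were known, and the part of these cells or genes in the Ccl24 result was not tested. In bulk RNA, more cells of a type and more RNA per cell cannot be told apart.

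**Figure D4:**
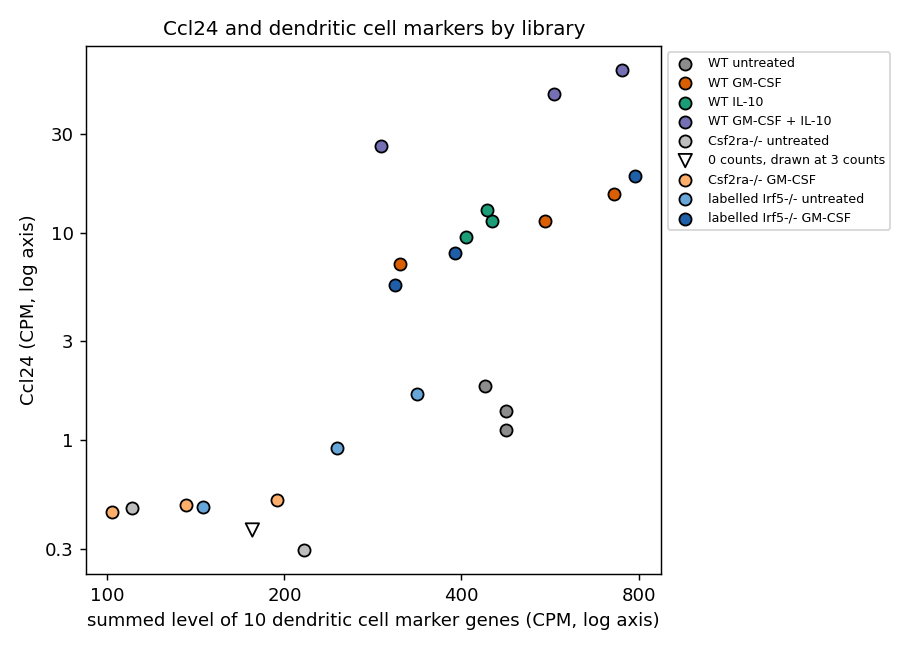
Ccl24 against the summed level of 10 dendritic cell marker genes (CPM, both axes logarithmic) in each library, coloured by group, with the library without Ccl24 counts drawn as an open triangle at the level of 3 counts. Within the GM-CSF and combination groups of wild type the points rise together, and the combination libraries hold the highest Ccl24 levels.

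Macrophage-defining markers were low beside the eosinophil markers, and by group mean their sum was lowest in Csf2ra-/- cells. The sum of 11 macrophage-defining genes ranged over 168 to 219 CPM in untreated wild type, 134 to 175 CPM with GM-CSF, 191 to 302 CPM with IL-10 and 141 to 223 CPM with the combination. It ranged over 102 to 153 CPM in Csf2ra-/- cells and 152 to 183 CPM in the libraries labelled Irf5-/-. The scavenger receptor genes Marco, at 0 in all libraries, and Cd163, at 0 in 5 of 8 groups, belong to this list. Of 9 tested members, 5 were called lower in untreated Csf2ra-/- cells than in untreated wild type, beside 10.8% of all tested genes called. Among them were the complement gene C1qb and Mrc1, and the median over the 9 was -2.91. The count was 1 without wild-type replicate 2, 2 with limma-voom, and 3 without wild-type replicate 3, without Csf2ra-/- replicate 1 or with the filter at 5 CPM. With GM-CSF edgeR called 0 of the 9 (median -1.53), beside 3.79% of all tested genes. At an unadjusted p under 0.05 there were 5 of the 9, beside 1695 of all tested genes. DESeq2 called 2 of the 9 there, beside 593 of all tested genes. Of a wider list of 18 monocyte and macrophage markers (2109 to 2858 CPM in sum), 16 were tested. Against wild type, 11 of the 16 were lower untreated (10.8% of all genes called) and 4 with GM-CSF (3.79%). With each library left out these counts were 4 to 10 and 2 to 4. Of 10 neutrophil markers, 4 were lower untreated and 3 with GM-CSF. The part of these genes in the low Ccl24 of Csf2ra-/- cells was not tested.

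Mrc1, the macrophage mannose receptor, read 15.7, 22.6 and 23.1 CPM in untreated wild-type libraries. IL-10 libraries stood higher, at 91.9, 71.7 and 36.3 CPM. Its change with IL-10 (log2 1.71 ± 0.65) was not called by edgeR (adjusted p = 0.907). With GM-CSF it read 6.17, 1.86 and 17.2 CPM, and with the combination 21.8, 62.6 and 8.44 CPM. Its order matched that of Ccl24 in both, in 3 of the 8 groups in all, and was opposite in untreated wild type. Its part in the Ccl24 result was not tested.

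The other CCR3 ligands were scarce or were not called with a single cytokine in wild type. Ccl11, the gene of eotaxin-1, had 5 counts over the 24 libraries and Ccl26, the gene of eotaxin-3, had 0. Ccl5, Ccl8 and Ccl28, further CCR3 ligands, fell below the filter on low counts. Ccl7, a monocyte chemokine that also binds CCR3, passed it. Untreated wild-type libraries held Ccl7 at 3.98, 5.77 and 7.40 CPM, those with GM-CSF at 8.63, 6.30 and 14.2 CPM, those with IL-10 at 13.4, 13.4 and 6.54 CPM, and those with the combination at 11.2, 22.4 and 8.17 CPM.

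The ranges of Ccl7 overlapped between untreated cells and each single cytokine. Its log2 changes of 0.76 ± 0.43 with GM-CSF and 0.98 ± 0.43 with IL-10 were not called by edgeR (adjusted p = 0.85 and 0.999). In the cells labelled Irf5-/- its change was 1.51 ± 0.46 (edgeR adjusted p = 0.318), which was called once the level of Y-linked genes entered as a covariate (adjusted p = 0.0466). Between the knockout labels with GM-CSF Ccl7 was called, higher in the cells labelled Irf5-/- by 3.16 ± 0.51 (edgeR adjusted p = 0.000662). In Csf2ra-/- cells it was lower than in wild type by a log2 difference of -2.96 ± 0.51 with GM-CSF (edgeR adjusted p = 0.00111) and -2.36 ± 0.55 untreated (adjusted p = 0.0115), the latter not called without untreated wild-type replicate 3 (adjusted p = 0.0524) or with limma-voom (0.0542). The receptor gene Ccr3 was abundant in all groups, at 353 ± 60.2 CPM in untreated wild type, 290 ± 59.1 CPM with GM-CSF, 325 ± 71.5 CPM with IL-10 and 256 ± 57.2 CPM with the combination. Its changes with GM-CSF (log2 -0.29 ± 0.18, edgeR adjusted p = 0.885) and with IL-10 (-0.12 ± 0.18, adjusted p = 0.999) in wild type were not called. In Csf2ra-/- cells Ccr3 read 216 ± 29.4 CPM untreated and 206 ± 21.1 CPM with GM-CSF. EdgeR called it lower than in wild type untreated (10.8% of all genes called) and did not call it with GM-CSF (3.79%). Libraries labelled Irf5-/- held it at 300 ± 33.0 CPM untreated and 261 ± 17.7 CPM with GM-CSF.

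Among the chemokine genes at large, several rose with GM-CSF. With IL-10 edgeR called only 0.0505% of all tested genes, and none of these. Of 36 others listed, 16 passed the filter, and 5 of these were higher with GM-CSF in wild type against 0.412% of all tested genes called higher. They were Ccl17 and Ccl22, ligands of CCR4, the inflammatory chemokine genes Ccl3 and Ccl4, and Cxcl2, a neutrophil attractant. The median over the 16 was 0.72 on the log2 scale, beside -0.01 over all tested genes. Ccl17 went from 3.85, 4.13 and 5.31 CPM to 153, 79.6 and 174 CPM (log2 4.93 ± 0.42, edgeR adjusted p = 1.49e-06), the only one of the 16 with an estimate above that of Ccl24. Ccl4 rose by 2.83 ± 0.26, Ccl22 by 2.16 ± 0.35 and Cxcl2 by 1.17 ± 0.18. Ccl3 rose by 0.72 ± 0.14 (edgeR adjusted p = 0.015) and was not called when untreated replicate 1 or 2 or GM-CSF replicate 1 or 2 was left out, with adjusted p-values from 0.0824 to 0.153.

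With IL-10 alone, 0 of the 16 were called by edgeR, beside 6 genes (0.0505%) among all tested, so the 0 says little about the family. At an unadjusted p under 0.05 there were 5, and DESeq2 called 1. Their median was 0.02, and the estimates ran from -1.57 ± 0.96 for Cx3cl1, fractalkine, to 0.98 ± 0.43 for Ccl7, all below the 2.95 of Ccl24. Ccl17 read 2.41, 2.67 and 1.72 CPM with IL-10, under each untreated library. In the combination it stood at 96.5, 117 and 45.7 CPM, a mean of 86.4 CPM beside 136 CPM with GM-CSF alone.

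GM-CSF on top of IL-10 raised the same 5 chemokine genes, where 0.724% of all tested genes were called higher, with a median of 0.65 over the 16. IL-10 on top of GM-CSF called 0 of 16 by edgeR (0.0505% of all genes called), with a median of 0.17. At an unadjusted p under 0.05 there was 1, beside 382 of all tested genes. Of the 17 chemokine genes that passed the filter, Ccl24 had the largest estimate in both IL-10 comparisons, which partly follows from how it was picked.

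In the cells labelled Irf5-/-, GM-CSF raised 4 of the 16 (0.353% of all genes), Ccl17, Ccl22, Ccl4 and Ccl2, with a median of 0.42. Ccl17 rose there by 5.46 ± 0.45 (edgeR adjusted p = 1.68e-06), with a call that was lost in the fit of these groups alone (adjusted p = 0.0613). Ccl4 rose by 2.17 ± 0.26. Ccl22 (2.11 ± 0.35, adjusted p = 0.00706) and Ccl2, a monocyte attractant (2.00 ± 0.36, adjusted p = 0.011), each lost their edgeR call in the fit of these groups alone and without 3 of the 6 libraries. For Ccl22 these were GM-CSF replicate 1 and untreated replicates 1 and 2 (adjusted p up to 0.0782), and for Ccl2 GM-CSF replicate 1 and untreated replicates 1 and 3 (up to 0.104). The count of 4 was 2 without GM-CSF replicate 1 or untreated replicate 1.

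In Csf2ra-/- cells 0 of the 16 were called, beside 0 of all tested genes. At an unadjusted p under 0.05 there were 0, beside 531 of all tested genes, and the median over the 16 was -0.05. Ccl17 there read 5.67, 2.89 and 3.25 CPM in untreated libraries and stood at 2.86, 2.11 and 3.25 CPM after GM-CSF. Its GM-CSF effect was larger in the cells labelled Irf5-/- by 5.88 ± 0.67 on the log2 scale (edgeR adjusted p = 0.000406), a difference that limma-voom did not call (adjusted p = 0.0654).

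**Figure D5:**
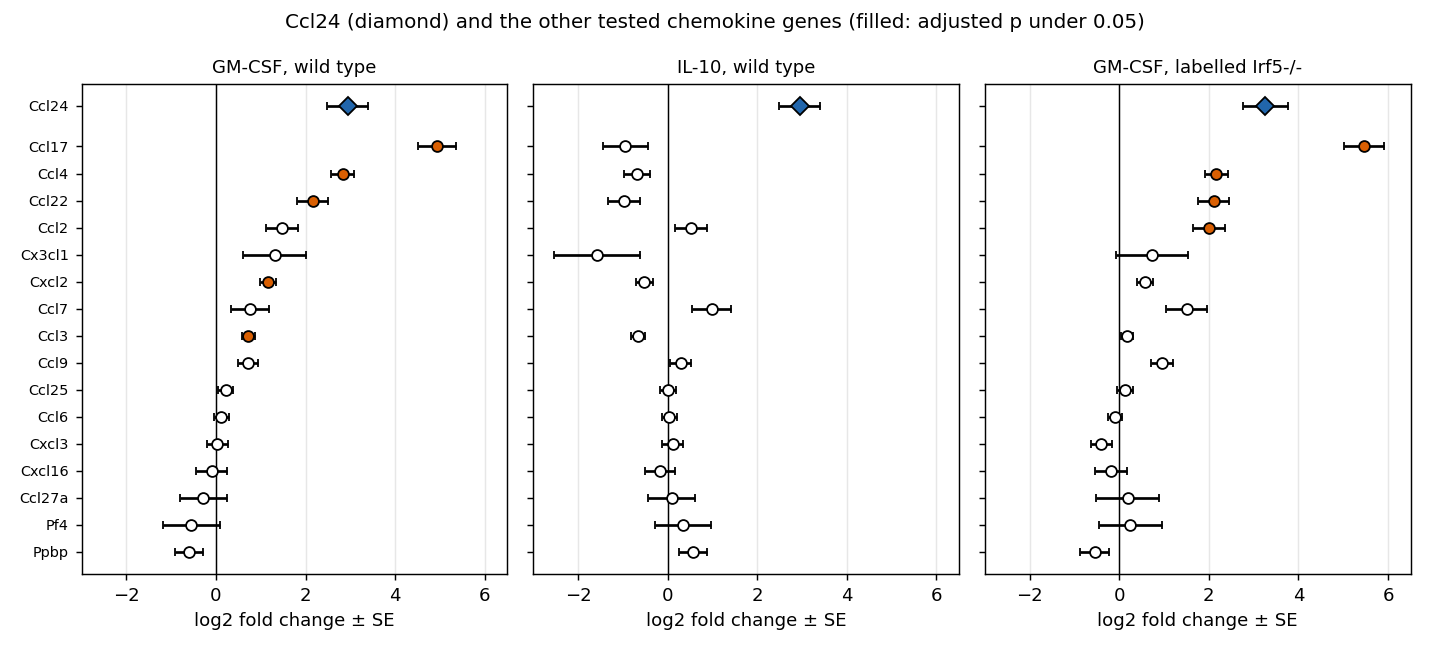
Log2 fold change ± SE of Ccl24 (diamond, no test in wild type) and of the other 16 tested chemokine genes (circles, filled where the edgeR adjusted p is under 0.05) for GM-CSF and IL-10 in wild type and GM-CSF in the libraries labelled Irf5-/-. GM-CSF moved several genes with Ccl24, and with IL-10 the highest of the others stood at 0.98.

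Levels of different genes are compared per kilobase of exon. In untreated wild-type cells Ccl24 read 1.11 CPM per kb, beside 6.84 for Cxcl2, 8.62 for Ccl17, 56.7 for Ccl3 and 3170 for Ccl6, which eosinophils express constitutively. With the combination it reached 34.4 CPM per kb, beside 16.8 for Cxcl2, 168 for Ccl17, 74.1 for Ccl4 and 65.3 for Ccl22. With IL-10 alone Ccl24 (8.69 CPM per kb) stood above Cxcl2 (4.77), Ccl17 (4.41) and Ccl4 (6.25), the reverse of their order in untreated cells.

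Ccl24 is often counted among genes of alternative activation, the state that IL-4 and IL-13 induce in macrophages. Of 22 other genes of that list, 21 were tested, and 4 were higher with GM-CSF in wild type (median 0.44), beside 0.412% of all tested genes called higher and a median of -0.01. These were Ccl17, Ccl22, Flt1, a VEGF receptor (1.63 ± 0.34, edgeR adjusted p = 0.0223), and Irf4, a transcription factor of dendritic cells and alternative activation (1.62 ± 0.34, adjusted p = 0.0235). Both Flt1 and Irf4 lost their call without untreated replicate 2 or 3 or GM-CSF replicate 1 or 3, with adjusted p-values up to 0.232 and 0.208, and the count of 4 was 2 in each of these fits and 9 with DESeq2. In that comparison DESeq2 called 112 of all tested genes. With IL-10 alone edgeR called 0 of the 21 (median 0.16), beside 6 of all tested genes. DESeq2 called 2 of the 21, beside 30 of all, and edgeR fitted to only the groups compared called 3 of the 21. With the combination against untreated, edgeR called 10 of the 21 higher, beside 1.5% of all tested genes called. That count was 4 to 9 with each library left out.

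In the cells labelled Irf5-/- GM-CSF raised 6 of the 21 (median 0.86, beside 0.353% of all genes called and a median of 0.01), among them Ccl17, Flt1, Cdh1, the gene of E-cadherin, and Ccl22. The count was 1 without GM-CSF replicate 1, 2 without untreated replicate 1 or 2, 2 in the fit of these groups alone and 3 with limma-voom. In Csf2ra-/- cells it was 0, also with every library left out in turn, and the median was -0.09.

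The receptor genes for these cytokines were measured in all groups. Csf2rb, the shared beta chain, read 3684 ± 341 CPM in untreated wild type. Its counts may be split with the near-identical Csf2rb2. Il10ra read 155 ± 19.7 CPM and Il10rb 39.95 ± 3.23 CPM. None of the 5 chains Csf2ra, Csf2rb, Csf2rb2, Il10ra and Il10rb was called with GM-CSF alone or IL-10 alone in wild type. These comparisons called 0.555% and 0.0505% of all tested genes. On top of IL-10, GM-CSF raised Csf2ra from 45.2 ± 3.05 to 73.8 ± 6.79 CPM. EdgeR called that change, beside 0.858% of all tested genes.

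Of 11 genes of GM-CSF receptor signalling, 1 was called with GM-CSF in wild type (median 0.06), beside 0.555% of all tested genes. It was Ccnd2, a cyclin gene activated by STAT5, which went from 35.3, 28.7 and 33.3 CPM to 59.1, 54.3 and 45.1 CPM (log2 0.70 ± 0.11, edgeR adjusted p = 0.00107), and it rose in the cells labelled Irf5-/- by 0.68 ± 0.11 (adjusted p = 0.00261). Of 11 genes of IL-10 signalling, 1 was called with IL-10 (median 0.27), beside 0.0505% of all tested genes. It was Bcl3, an NF-kappaB regulator induced by IL-10, which went from 5.36, 9.30 and 7.70 CPM to 26.8, 27.1 and 23.5 CPM (1.80 ± 0.26, edgeR adjusted p = 0.00785). Bcl3 lost that call without IL-10 replicate 1 (adjusted p = 0.0557) or untreated replicate 3 (adjusted p = 0.0886).

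Ccnd2 stood at 33.3 ± 1.33 CPM with IL-10 alone, near its untreated 32.4 ± 3.42 CPM, and Bcl3 stood at 8.31 ± 1.10 CPM with GM-CSF alone, near its untreated 7.45 ± 1.98 CPM. Of 7 genes of the IL-4 and IL-13 axis, 1 was called with GM-CSF in wild type (median 0.23), beside 0.555% of all tested genes. It was Il13, the gene of that interleukin, which went from 4.51, 4.48 and 4.26 CPM to 11.3, 17.5 and 9.55 CPM (log2 1.53 ± 0.22, edgeR adjusted p = 0.000785) and read 5.22, 6.41 and 5.42 CPM with IL-10. With IL-10 alone 0 of these 7 were called by edgeR. IL-10 on top of GM-CSF called 1 of them, Jak3, beside 0.0505% of all tested genes. Jak3 lost that call without GM-CSF replicate 1 or 2 or combination replicate 1 or 2 (edgeR adjusted p up to 0.272). The combination against untreated called 3 of the 7 higher, Il13, Il4ra and Jak3, beside 1.5% of all tested genes.

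The 8 genes whose pattern over the groups came nearest to that of Ccl24 were all scarcer with the combination. Likeness was the root mean square of the differences between 2 genes in their 7 log2 changes from untreated wild type, over 11256 genes. It was 1.16 for Alpk2, a kinase gene, 1.21 for Gfra2, a neurotrophic factor receptor, 1.26 for AA467197, 1.27 for P2rx5, an ATP-gated channel, and 1.31 for Il2ra, the alpha chain of the IL-2 receptor. Cd209d, a lectin (1.35), Synpo, an actin-associated protein (1.36), and Flnc, a filamin (1.39), followed, and the ninth gene stood at 1.43. The median over all compared genes was 2.87, and a gene that did not change in any group would stand at 2.86.

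None of these genes came close to Ccl24 in the IL-10 arm. Their log2 changes with IL-10 ran from 0.44 (AA467197) to 1.28 (Cd209d), beside 2.95 for Ccl24. AA467197, the most abundant of them, read 0.949 CPM untreated, 6.17 CPM with GM-CSF, 1.31 CPM with IL-10 and 9.26 CPM with the combination (means, n = 3). Gfra2 read 0.426, 2.43, 0.837 and 3.39 CPM in that order. With IL-10 the means of all 8 lay between 0.175 and 1.31 CPM, beside 11.3 CPM for Ccl24. Apart from AA467197 their untreated wild-type means were 0.094 to 0.426 CPM, so their folds and ranks rest on few counts.

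Few genes next to Ccl24 on chromosome 5 could be tested, and edgeR called none of them with the cytokines. Of 16 annotated genes within 200 kb, 10 are listed in the files and 6 passed the filter, and none was called in 8 comparisons of cytokine effects, the difference between the knockout labels among them. Those comparisons called 0% to 1.5% of all tested genes, so a count of 0 among 6 says little about the locus. Estimates for 5 of the 6 stayed between -0.24 and 0.23 on the log2 scale. The sixth, Hip1, an endocytic adaptor gene, stood at 0.83 ± 0.22 with the combination in wild type (edgeR adjusted p = 0.07), a comparison that called 1.5% of all genes. It was called there by DESeq2 (adjusted p = 0.0233) and by edgeR without combination replicate 3 (adjusted p = 0.015).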

How the data were processed

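RNA was sequenced from 24 samples with stranded mRNA libraries, per the labels' protocols. The authors deposited 1 raw read count per gene and sample. The submitters' processing notes name STAR, featureCounts and GRCm38.p6. For the strand setting and multi-mapping reads, the choice is not given in the sources used here. Symbols came from GENCODE M21, where 25712 of 25746 identifiers matched, and the other 34 held 0.0189% of counts. Counts were scaled by TMM (factors 0.939 to 1.031) in edgeR 4.0.16 on R 4.3.3. filterByExpr kept 11885 genes. The robust quasi-likelihood fit held 8 group means and all libraries, and calls were made at an adjusted p under 0.05 (Benjamini-Hochberg, all tested genes). The script was tested on simulated data. No 2 libraries held identical values. Depth limits precision, and 3 counts equal 0.480 CPM in the shallowest library.

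The gene, lists and rules were chosen with earlier results of these data known. Genes named are Ccl24, CCR3 ligands and receptor, up to 4 called genes of each list by size, receptor chains, the 8 nearest patterns and tested genes within 200 kb. Ccl3, Cxcl2 and single dendritic cell and macrophage markers were named after their values were seen. Alternatives were DESeq2-type size factors, DESeq2 1.42.0, limma-voom (limma 3.58.1), other filters (none, or 5 CPM in 3 libraries), only the groups compared, Y-linked level as a covariate and each library left out.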

Additional observations from a re-analysis of the deposited data

Results flagged for a closer look

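The GM-CSF effect on Ccl17 differed between the knockout-labelled genotypes by the test of the difference itself, at 5.88 on the log2 scale (edgeR adjusted p = 0.000406), with all 3 treated libraries labelled Irf5-/- above all untreated ones and overlapping ranges in Csf2ra-/- cells. Groups of 3 libraries were too small for the check on single libraries that stand apart.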

How the results depend on the processing

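The sign of the Ccl24 difference between treated libraries labelled Irf5-/- and wild type was not settled, at -0.72 to 0.26 with each library left out. No other Ccl24 value changed sign under an alternative that gave one. In the cells labelled Irf5-/- the GM-CSF effect on Ccl24 was 3.15 with limma-voom (adjusted p = 0.193) and 3.26 with only the groups compared (adjusted p = 0.167), no longer called, and 2.60 to 3.78 with each library left out, called each time. With only the groups compared, Ccl24 fell below the low-count filter for GM-CSF in Csf2ra-/- cells and for the untreated knockout comparison, so neither could be fitted. In wild type, leaving out each library gave 2.66 to 3.19 for GM-CSF, 2.80 to 3.18 for IL-10 and -1.26 to -0.68 for the interaction. The chemokine count with GM-CSF in cells labelled Irf5-/- was 2 with only the groups compared and 2 to 4 with each library left out, and with IL-10 in wild type 1 with DESeq2 and 1 with only the groups compared. The Ccr3 change with IL-10 turned from -0.12 to 0.06 without IL-10 replicate 3 (range -0.25 to 0.06). No paired analysis was run, because the labels carry no replicate numbers shared between groups. The Y-linked sums labelled Irf5-/- leave a pairing across treatments possible there. The causes of these shifts were not tested. Alternatives for the comparisons with wild type, the marker lists, the chemokines between knockout labels, the alternative activation list and single genes were added after seeing the data.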
